A study of Mus musculus with 9 samples.

Results

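The genes described here were 28 genes of GABA and glycine signalling, chosen by symbol from the 47729 genes counted in each library. They comprised the enzymes that make and break down GABA, the vesicular and membrane transporters, subunits of the GABA-A, GABA-B and glycine receptors, and 2 proteins of the inhibitory synapse. Their transcripts were measured by RNA sequencing in midbrain dissected at 6 months of age (P180) from mice with 3 Dot1l genotypes. Dot1l encodes the main methyltransferase of histone H3 lysine 79, and the comparisons asked how transcripts of the adult midbrain differed when the gene was floxed on 1 or both alleles.

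The WT mice were Dot1l-+/+, the Het mice Dot1l-Floxed/+ and the KO mice Dot1l-Floxed/Floxed, each represented by 3 libraries. All mice, WT included, were labelled C57/Bl6 and carried Pitx3-Cre/+ and the Rosa-lox-stop-lox-YFP reporter. Cre was driven from the Pitx3 locus, which within the midbrain is active in dopamine neurons, whereas the dissection was not sorted and held all cell types of the tissue. Cells that never expressed Cre therefore contributed to every value below. Each library was a pool of 3 animals, so the p-values below measure the spread between pools. Totals ran from 16422135 to 28403218 counts per library. Dot1l itself lay between 80.2 and 85.1 CPM (normalised counts scaled to a common library size) in WT, 60.6 and 84.2 in Het and 73.9 and 82.8 in KO, and these counts include exons that the floxed allele keeps. The labelled cell type was midbrain dopamine neurons, but the oligodendrocyte gene Mbp stood at 3816 to 4527 CPM and tyrosine hydroxylase (Th) at 44.5 to 84.3 CPM. The summed level of 11 dopamine neuron markers was 749 to 839 CPM in WT, 602 to 755 in Het and 592 to 623 in KO, and in bulk tissue fewer cells of a type and less RNA per cell cannot be told apart.

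GABA is the main fast inhibitory transmitter of the brain, and glycine shares this role in the brainstem and spinal cord. GABA is made from glutamate in the terminal, loaded into vesicles, released onto chloride-conducting GABA-A receptors and G-protein-coupled GABA-B receptors, and cleared by transporters into neurons and astrocytes. In the ventral midbrain, GABA neurons of the substantia nigra pars reticulata and the ventral tegmental area lie among the dopamine neurons and inhibit them.

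No gene of the set passed the test between Dot1l genotypes. In edgeR's quasi-likelihood test with Benjamini-Hochberg adjustment over 17671 genes, 27 of the 28 passed the filter on low counts, and 0 of these 27 had an adjusted p under 0.05 in Het against WT, KO against WT or KO against Het, where the share of all genes tested was 0% each time. Without adjustment, again 0 of 27 passed 0.05 in any of the 3 comparisons, against 8.39% of all genes in Het against WT, 3.93% in KO against WT and 6.48% in KO against Het. DESeq2 likewise gave 0 adjusted calls among the members, and 1, 0 and 0 unadjusted calls in the same order, where 4.42%, 1.74% and 3.31% of all genes passed without adjustment and 7, 3 and 11 genes with it. The median log2 fold change over the 27 was -0.015, -0.014 and -0.011 in these comparisons, beside -0.0034, 0.0009 and 0.0015 over all genes. What differed more was 1 library: in Het replicate 2, 13 of the 27 genes stood lower than in any other library.

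The genes spanned a wide range of levels. Per length, as TPM (counts per exon base, scaled to a common sum) over merged exons, the astrocytic GABA transporter Slc6a11 led the WT libraries with 512 TPM ± 34.6 (SD, n = 3). The GABA-B subunit Gabbr1 followed with 379.9 ± 17.0, and the glycine receptor beta subunit Glrb with 325 ± 6.23. Gad2 at 304 ± 17.0 TPM and the GABA transaminase Abat at 301 ± 6.62 lay within each other's spread, and Gad1 at 265 ± 12.5 came next. At the other end stood the glycine receptor alpha 3 subunit Glra3 with 5.59 ± 0.475 TPM, the GABA-A epsilon subunit Gabre with 2.69 ± 0.262, the neuronal glycine transporter Slc6a5 with 1.53 ± 0.444 and the GABA-A alpha 6 subunit Gabra6 with 0.167 ± 0.232. The order depended in part on the length used, since with the longest transcript of each gene Gad1 moved from rank 6 to rank 2 of the 28.

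**Figure D1:**
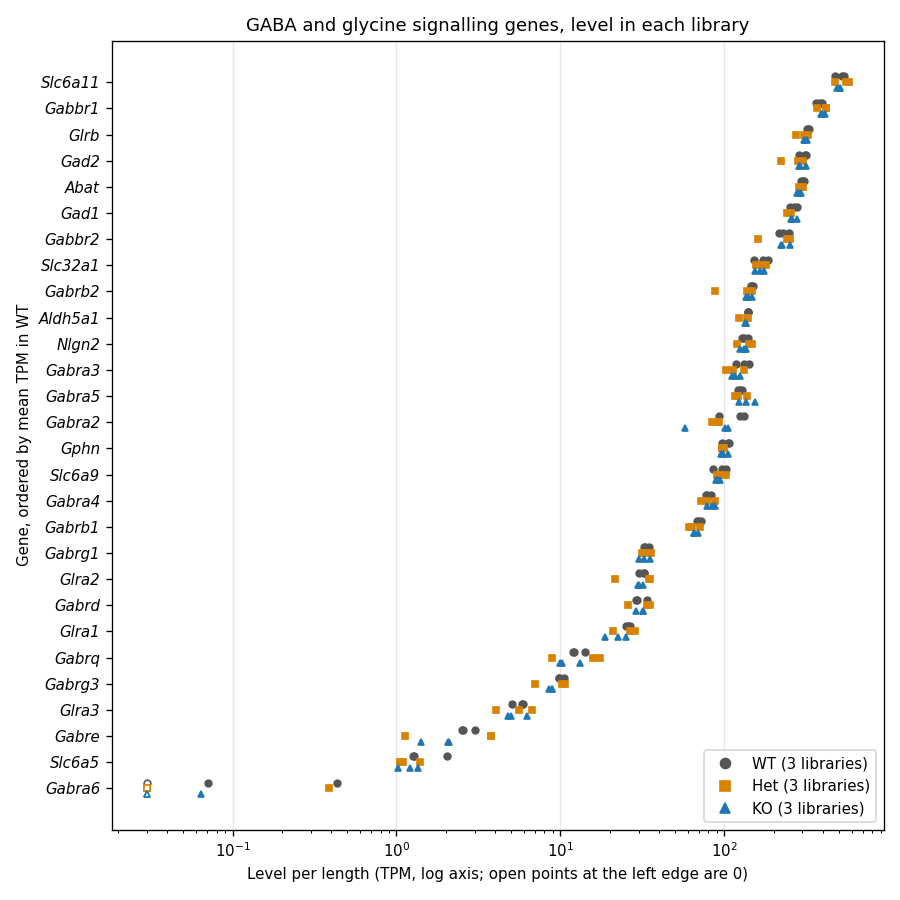
Level of each of the 28 genes in each library, as TPM on a log axis, with genes ordered by their WT mean from Slc6a11 (512 TPM) to Gabra6 (0.167 TPM); WT, Het and KO libraries are offset within a gene's line. The genotypes lie on top of each other for most genes, with a single Het library set to the left at Gabrb2, Gabbr2, Gad2, Glra2, Gabrg3 and Gabre, and a single KO library at Gabra2.

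The sequences before a RefSeq transcription start of 4 genes are shown because their counts moved apart or together between libraries, as described below. Gad1 and Gad2 encode the 2 glutamate decarboxylases and parted in 1 library. Gabre and Gabrq, the epsilon and theta subunits of the GABA-A receptor, were both high or both low in the Het libraries. They lie on chromosome X with Gabra3 between them (chrX:72432681-72656848). Gabra3 was not at its highest in Het replicates 1 and 3, with 126, 103 and 110 CPM in Het and 124, 136 and 113 in WT. Each run holds the 250 bases before the RefSeq transcription start on GRCm38.p6. The windows lie at chr2:70561879-70562128 (plus strand) for Gad1, chr2:22622077-22622326 (plus) for Gad2, chrX:72274722-72274971 (minus) for Gabre and chrX:72824928-72825177 (plus) for Gabrq. In the GENCODE M21 gene models the Gad1 window lies inside the gene, which starts at chr2:70553072. The Gad2 and Gabre windows overlap the first bases of their genes, which start at chr2:22622205 and chrX:72274803. Capitals mark matches, on either strand, to TATAAA, which is spelled TTTATA when read along the opposite strand, and to the GC box GGGCGG, which is spelled CCGCCC when read along the opposite strand.
Gad1: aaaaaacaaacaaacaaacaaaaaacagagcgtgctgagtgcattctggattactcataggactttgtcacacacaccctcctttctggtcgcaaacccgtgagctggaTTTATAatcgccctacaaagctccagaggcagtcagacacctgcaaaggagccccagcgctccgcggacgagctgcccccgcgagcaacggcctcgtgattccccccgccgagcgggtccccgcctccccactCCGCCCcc
Gad2: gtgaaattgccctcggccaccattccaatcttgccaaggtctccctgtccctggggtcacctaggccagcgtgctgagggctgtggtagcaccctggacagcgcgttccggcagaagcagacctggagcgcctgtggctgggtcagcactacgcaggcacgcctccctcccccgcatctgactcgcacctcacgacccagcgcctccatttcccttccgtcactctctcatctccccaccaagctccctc
Gabre: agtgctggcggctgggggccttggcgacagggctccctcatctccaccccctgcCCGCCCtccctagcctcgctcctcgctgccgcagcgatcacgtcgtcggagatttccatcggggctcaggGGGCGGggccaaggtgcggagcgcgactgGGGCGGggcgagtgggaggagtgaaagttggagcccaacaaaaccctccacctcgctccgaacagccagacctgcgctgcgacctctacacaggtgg
Gabrq: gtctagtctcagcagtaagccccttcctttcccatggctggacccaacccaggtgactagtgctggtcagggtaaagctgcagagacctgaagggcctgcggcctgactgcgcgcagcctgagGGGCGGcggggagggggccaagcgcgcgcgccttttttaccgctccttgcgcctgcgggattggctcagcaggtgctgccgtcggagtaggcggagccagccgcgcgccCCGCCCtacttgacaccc
Gad1 held 1 TATAAA match on the other strand, whose first base lies 141 bases before the start, and 1 GC box 8 bases before it, and Gad2 held neither. Gabre held 3 GC boxes and Gabrq 2, and no matches overlapped. RefSeq windows were matched for 25 of the 28 genes, of which 16 (64%) held a GC box and 4 (16%) a TATAAA match, against 33.0% and 13.0% of 27025 genes with a window of the same length. The median number of CpG pairs was 13 per window in the 25 genes and 6 in all genes. The 27025 genes were limited neither to protein-coding genes nor to the 17671 genes tested, so the sets compared are unlike. These are matches of letters only and were not tested against the counts.

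For GABA synthesis and vesicular loading the genotypes lay within each other's spread. Gad1, the decarboxylase that makes most of the GABA in the brain, was counted at 508, 497 and 471 CPM in WT, 471, 499 and 449 in Het and 499.7, 491 and 517 in KO. Gad2, the decarboxylase tied to synaptic vesicles, was counted at 439, 453 and 409 CPM in WT, 435, 333 and 405 in Het and 429, 427 and 453 in KO. The genotypes overlapped for both genes, and Het replicate 2 lay below every other library for Gad2 but not for Gad1. The fitted log2 fold change of KO against WT was 0.031 (95% interval -0.087 to 0.15) for Gad1 and 0.0076 (-0.17 to 0.18) for Gad2. For Het against WT it was -0.056 (-0.17 to 0.06) for Gad1 and -0.15 (-0.33 to 0.026) for Gad2, with adjusted p = 0.818 and 0.639 in edgeR's quasi-likelihood test with Benjamini-Hochberg adjustment, and without Het replicate 2 the Gad2 value was -0.047. Slc32a1, the vesicular transporter that loads both GABA and glycine, was counted at 125, 117 and 105 CPM in WT, 117, 112 and 123 in Het and 123, 109 and 112 in KO. All 3 groups shared the same range, and its interval in KO against WT ran from -0.16 to 0.14.

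The ratio of Gad1 to Gad2 counts showed how closely the pair was held and where it was not. In 8 of the 9 libraries the ratio lay between 1.08 and 1.17, and in Het replicate 2 it was 1.5. No other library came near this value, and the WT and KO means were 1.13 ± 0.0328 and 1.15 ± 0.0121 (SD, n = 3).

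Both enzymes of GABA breakdown were the steadiest of the 27 genes. Abat, which converts GABA to succinic semialdehyde, was counted at 560.2, 582 and 557 CPM in WT, 572, 566 and 565 in Het and 558, 546 and 557 in KO. All KO libraries lay below all Het libraries, although the gap was small, with a log2 fold change of -0.036 (95% interval -0.13 to 0.064) and an adjusted p of 0.911 in edgeR's quasi-likelihood test with Benjamini-Hochberg adjustment. Abat was the only one of the 27 genes with KO wholly below Het, and 0 lay wholly above, where the shares of all genes were 5.13% and 5.98%. Its pooled within-genotype SD was 0.0225 on the log2 scale, and 99.0% of the 2433 genes at 100 CPM or more had a larger one. Aldh5a1, which oxidises succinic semialdehyde, ranged from 178 to 195 CPM over the 9 libraries, with Het replicate 2 the lowest. Its interval in KO against WT ran from -0.10 to 0.095 on the log2 scale.

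The membrane transporters clear GABA and glycine from the synapse. Slc6a11, the GABA transporter GAT3 of astrocytes, was counted at 634, 665 and 584 CPM in WT, 679, 611 and 712 in Het and 647, 625 and 626 in KO. Slc6a9, the glycine transporter GlyT1 of glia, was counted at 126, 122 and 108 CPM in WT, 129, 119.9 and 122 in Het and 121, 115 and 115 in KO. For both, the WT libraries alone spanned most of the range, with WT replicate 3 the lowest of the 9. The log2 fold changes of KO against WT were 0.01 (95% interval -0.13 to 0.15) and -0.017 (-0.15 to 0.11). Slc6a5, the transporter GlyT2 that marks glycine neurons of the brainstem, was counted at only 2.22, 2.23 and 3.60 CPM in WT, 2.43, 2.01 and 1.87 in Het and 2.20, 1.86 and 2.36 in KO. WT replicate 3 was the only library that stood out, and the log2 fold changes of Het and KO against WT, -0.36 (-0.84 to 0.11) and -0.35 (-0.83 to 0.14), became -0.082 and -0.067 without it.

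Among the GABA-A alpha subunits, Gabra2 varied most between libraries of the same genotype. It was counted at 170.3, 232 and 247 CPM in WT, 173, 179 and 157 in Het and 110.4, 205 and 186 in KO. WT replicate 1 sat with the Het libraries and KO replicate 1 lay below every other library, so that the groups overlapped. The pooled SD within genotypes was 0.33 on the log2 scale, against a median of 0.0679 for the 2433 genes at 100 CPM or more, of which only 7 were more variable. Of the members at 100 CPM or more, Gabra2 had the largest fold changes, -0.35 (95% interval -0.73 to 0.035) in Het against WT and -0.37 (-0.76 to 0.011) in KO against WT. The second had the lowest unadjusted p of the 27 genes in that comparison, 0.056, and an adjusted p of 0.999 in edgeR's quasi-likelihood test with Benjamini-Hochberg adjustment. Het and KO were compared with the same WT libraries. Without KO replicate 1 the change in KO against WT was -0.14, and with a correction for exon length and GC content that in Het against WT was -0.23. Without WT replicate 1 the changes were -0.49 in Het against WT and -0.52 in KO against WT. With a block for replicate number they were -0.32 and -0.39. Their unadjusted p was then 0.0285 and 0.0102, and their adjusted p 0.502 and 0.999, in edgeR's quasi-likelihood test with Benjamini-Hochberg adjustment. With the block and the correction together the changes were -0.21 and -0.37. Without the filter on low counts, Gabra2 alone of the members passed in both comparisons, with adjusted p = 3.33e-05 and 3.83e-06, and no other fit gave it an adjusted p under 0.05. That setting called 251 and 118 genes in all in these comparisons, where the filtered test called 0.

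The other alpha subunits held closer ranges. Gabra5, the subunit of many extrasynaptic receptors, had means of 90.1 ± 2.82 CPM in WT, 92.5 ± 11.3 in Het and 102 ± 13.2 in KO (SD, n = 3), with KO replicate 1 the highest at 115 and KO replicate 3 within the WT range at 88.6. Its log2 fold change of KO against WT was 0.18 (95% interval -0.02 to 0.38), and it was 0.085 without KO replicate 1 and 0.27 without KO replicate 3, the latter with an unadjusted p of 0.00989 in edgeR's quasi-likelihood test. Gabra3, the alpha subunit typical of monoamine neurons, averaged 124 ± 11.4, 113 ± 12 and 115 ± 7.41 CPM, and Gabra4 averaged 118 ± 4.58, 120.1 ± 10.1 and 127 ± 9.84 CPM in WT, Het and KO. For neither did the groups separate. Gabra6, the alpha subunit of cerebellar granule cells, was the member that failed the filter, with counts of 0, 1 and 7 in WT, 0, 7 and 0 in Het and 1, 0 and 0 in KO. A count of 0 allows up to 3 counts, 0.106 to 0.183 CPM in these libraries, for counting error only. The 2 libraries with 7 counts, WT replicate 3 and Het replicate 2, were also the highest in Fat2, a gene of cerebellar granule cells, at 6.01 and 5.97 CPM beside 0.191 to 3.12 elsewhere, and in Hoxb3, a gene of the hindbrain, at 1.35 and 1.52 CPM beside 0 to 0.851. These were the 2 highest libraries for 3 of 9 cerebellar markers (Fat2, Barhl1 and Cbln3), 4 of 9 hindbrain markers (Hoxb3, Hoxb4, Hoxa3 and Hoxa5) and 2 of 4 serotonin neuron markers (Tph2 and Slc6a4), but not for the more abundant cerebellar markers Zic1, Neurod1, Car8 and Calb1. Of the cerebellar and hindbrain markers, 7 and 2 were tested, and 0 passed an unadjusted p of 0.05 in either comparison with WT. The summed levels of the 2 lists were 227 to 247 and 6.57 to 8.94 CPM in WT, 236 to 241 and 7.28 to 9.92 in Het, and 234 to 260.4 and 6.12 to 7.71 in KO, and in Het replicate 2 Calb1 alone made up 124 CPM of the cerebellar sum. The part of neighbouring tissue in the Gabra6 counts was not tested.

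The beta subunits differed from each other in how they behaved between libraries. Gabrb2 was counted at 227, 228 and 226 CPM in WT, 228, 144 and 216 in Het and 223, 219 and 229 in KO. Apart from Het replicate 2 at 144 CPM, the 8 libraries lay within 216 to 229 CPM, and the WT SD was 1.15 CPM. The log2 fold change of Het against WT was -0.21 (95% interval -0.47 to 0.044), and without Het replicate 2 it was -0.033. In KO against WT it was -0.019 (-0.28 to 0.24). Gabrb1 ranged from 215 to 246 CPM over the 9 libraries, and its log2 fold change of KO against WT was -0.035 (-0.15 to 0.078). Gabra4 and Gabrb1 lie head to head on chromosome 5 (GENCODE M21 on GRCm38, chr5:71569749-71658308 minus and chr5:71658113-72149037 plus) and share 46 exon bases on opposite strands. Reads from that stretch may be counted for either gene, since the use of strand in the counting is not given in the sources used here.

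The gamma, delta, epsilon and theta subunits held the 2 members with the widest spread between Het libraries. Gabre, the epsilon subunit, was counted at 3.40, 2.96 and 2.93 CPM in WT, 4.38, 1.38 and 4.39 in Het and 2.48, 1.70 and 2.42 in KO. Gabrq, the theta subunit, was counted at 15.3, 15.7 and 18.5 CPM in WT, 22.9, 12.3 and 20.9 in Het and 13.7, 13.4 and 17.0 in KO. Het replicates 1 and 3 were the highest of all libraries for both genes, and Het replicate 2 was the lowest. The same held for Glra2, at 27.1, 17.5 and 26.8 CPM in Het, and for Gabrd, at 24.8, 19.0 and 24.0. All KO libraries lay below all WT libraries for Gabre but overlapped with them for Gabrq. The log2 fold change of KO against WT was -0.50 (95% interval -1.24 to 0.24) for Gabre and -0.18 (-0.58 to 0.23) for Gabrq, and of KO against Het -0.62 (-1.35 to 0.11) and -0.35 (-0.75 to 0.053). With 1 library left out in turn, Gabre in KO against WT reached -0.33 without KO replicate 2, and Gabrq ranged from -0.086 without WT replicate 3 to -0.28 without KO replicate 3. In KO against Het the values without Het replicate 1 were -0.39 for Gabre and -0.18 for Gabrq, and Gabre stood at -0.38 without Het replicate 3. The adjusted p was 0.999 for both in the first and 0.778 for both in the second comparison, in edgeR's quasi-likelihood test with Benjamini-Hochberg adjustment. Gabre rested on 39 to 115 counts per library.

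These 2 subunits are expressed in the hypothalamus and in monoamine neurons, and the libraries that were high in them were also high in the hypothalamic peptide genes Pmch and Hcrt. Pmch, the precursor of melanin-concentrating hormone, stood at 99.3 CPM in Het replicate 1 and 49.6 in Het replicate 3, but at 0.636 in Het replicate 2, and at 0.472 to 7.23 in WT and KO. Hcrt, the orexin precursor, stood at 16.2 and 2.63 CPM in Het replicates 1 and 3 and at no more than 0.188 elsewhere, with 0 counts in WT replicate 2. Of 7 hypothalamic peptide genes listed, 4 were tested and 3 of them (Pmch, Trh and Cartpt) were higher in Het than in WT at an unadjusted p under 0.05. Cartpt did not follow Gabre and Gabrq, at 36.4, 33.8 and 35.4 CPM in Het and 34.2, 39.9 and 41.8 in KO, beside 36.7, 26.1 and 24.6 in WT. It was also higher in KO than in WT (log2 fold change 0.41, unadjusted p = 0.00626 and adjusted p = 0.999 in edgeR's quasi-likelihood test with Benjamini-Hochberg adjustment), and Avp was highest in WT replicate 3 at 2.10 CPM. The summed level over the 7 genes was 27.8 to 46.2 CPM in WT, 36.7 to 161 in Het and 36.7 to 45.6 in KO. The plot of counts by library sets Pmch beside Gabrq and Gabre. The part of hypothalamic tissue in the Gabre and Gabrq counts was not tested.

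**Figure D2:**
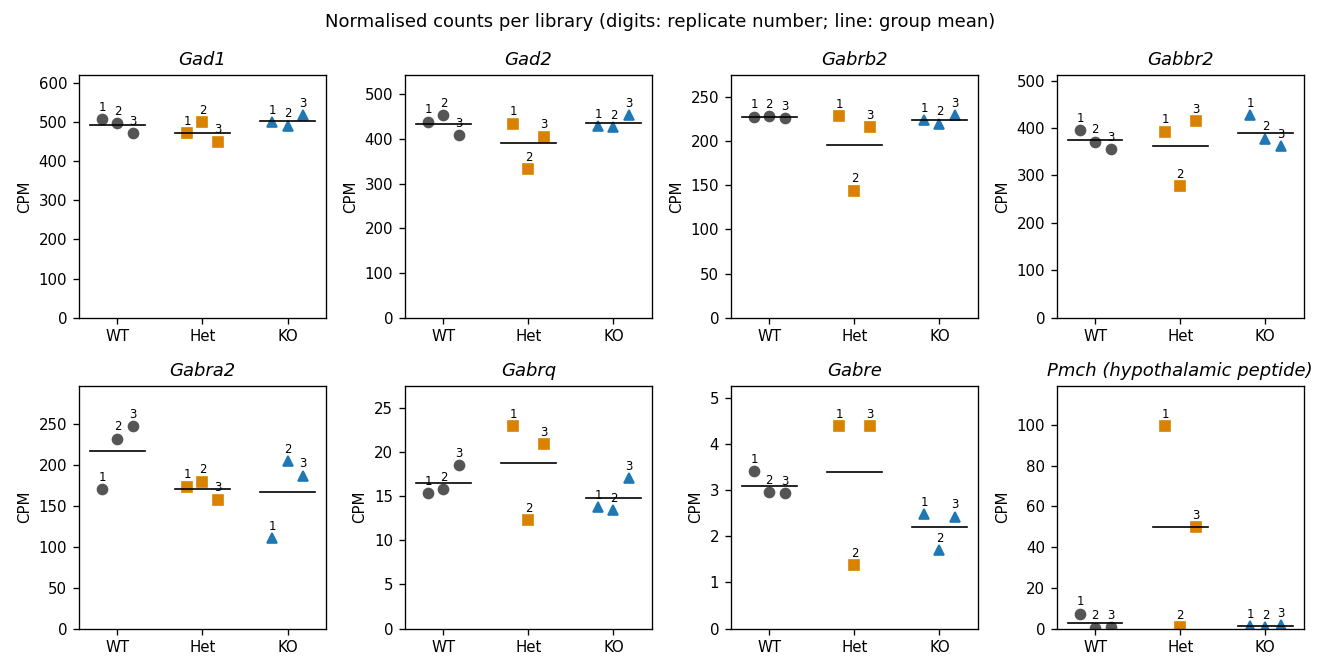
Normalised counts (CPM, linear axes from 0) of 7 members and of the hypothalamic peptide gene Pmch in each library; points carry the replicate number and the line is the mean of 3 libraries. Het replicate 2 sits apart below the rest for Gad2, Gabrb2 and Gabbr2, as at 144 CPM for Gabrb2, whereas Het replicates 1 and 3 are the highest points for Gabrq, Gabre and Pmch.

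Of the remaining subunits of this group, Gabrg3, a gamma subunit, was counted at 28, 30.7 and 28.7 CPM in WT, 31.2, 21.5 and 30.0 in Het and 26.7, 25.6 and 25.7 in KO. All KO libraries lay below all WT libraries, with a log2 fold change of -0.16 (95% interval -0.41 to 0.083) and adjusted p = 0.999 in edgeR's quasi-likelihood test with Benjamini-Hochberg adjustment. Gabre and Gabrg3 were the 2 genes of 27 with KO wholly below WT, and 0 lay wholly above, where the shares of all genes were 5.24% and 5.02%. In Het against WT, 0 of the 27 lay wholly below and 0 wholly above, beside 6.47% and 6.82% of all genes. Gabrg1 ranged from 59.8 to 68.5 CPM and Gabrd, the delta subunit of tonic inhibition, from 19.0 to 24.8 CPM over the 9 libraries, with no separation of the groups. Their log2 fold changes of KO against WT were 0.011 (-0.13 to 0.15) and 0.062 (-0.17 to 0.29). Gabrg1 depended on the correction for exon length and GC content, which moved its log2 fold change in Het against WT from 0.029 to 0.19 and in KO against Het from -0.018 to -0.14, with unadjusted p = 0.00146 and 0.0136 and adjusted p = 0.714 and 0.781 in edgeR's quasi-likelihood test with Benjamini-Hochberg adjustment. With the replicate block added, the values were again 0.19 and -0.14.

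The GABA-B receptor is an obligate dimer of Gabbr1, which binds GABA, and Gabbr2, which couples to the G protein. Gabbr1 was counted at 711, 751 and 688 CPM in WT, 792, 737 and 795 in Het and 768, 804 and 734 in KO. In both floxed groups 2 of 3 libraries lay above every WT library and the third lay within the WT range. The log2 fold change was 0.11 (95% interval -0.01 to 0.24) in Het against WT, the lowest unadjusted p of the 27 genes in that comparison (0.0697, adjusted p = 0.621 in edgeR's quasi-likelihood test with Benjamini-Hochberg adjustment), and 0.10 (-0.022 to 0.22) in KO against the same WT libraries. Gabbr2 was counted at 396, 371 and 355 CPM in WT, 393, 277 and 415 in Het and 427, 378 and 362 in KO. Het replicate 2 lay below the other 8 libraries, and the ratio of Gabbr1 to Gabbr2 counts was 2.66 there and 1.80 to 2.13 in the other libraries.

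Of the glycine receptor subunits, Glrb, the beta subunit that binds gephyrin, was by far the highest per length. It was counted at 362, 377 and 363 CPM in WT, 347, 387 and 313 in Het and 373, 362 and 353 in KO. Het replicate 2 was the highest library and Het replicate 3 the lowest, so the Het group spanned both other groups. Glra1, the adult alpha subunit, was counted at 14.6, 15.2 and 15.7 CPM in WT, 16.8, 12.9 and 15.7 in Het and 13.6, 11.5 and 14.7 in KO. KO replicate 3 lay within the WT range and the other KO libraries below it, and the log2 fold change was -0.20 (95% interval -0.46 to 0.055), or -0.10 without KO replicate 2. Glra2 averaged 24.2 ± 0.963, 23.8 ± 5.44 and 24.0 ± 0.416 CPM in WT, Het and KO, and Glra3 averaged 12.5 ± 1.02, 12.4 ± 2.77 and 12.3 ± 1.53 CPM (SD, n = 3). The means nearly coincided for both, and Het replicate 2 was the lowest of the 9 libraries for each. For Glra3 the Het libraries stood at 15.0, 9.50 and 12.6 CPM, so that Het replicate 1 was the highest of the 9. Glra2 was 0.015 higher in KO than in Het on the log2 scale and 0.17 lower without Het replicate 2.

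The scaffold gephyrin (Gphn), which anchors both receptor types, and the adhesion protein neuroligin 2 (Nlgn2) differed by less than the spread between pools. Gphn was counted at 94.6, 97.7 and 88.5 CPM in WT, 88.2, 95.6 and 89.2 in Het and 90.5, 92.9 and 95.4 in KO. The groups overlapped throughout, and the log2 fold change of KO against WT was -0.01 (95% interval -0.13 to 0.11). Nlgn2 ranged from 175 to 208 CPM, and its log2 fold change of KO against WT was 0.0071 (-0.14 to 0.15).

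The precision of these comparisons set how large a difference could have been missed. The 95% interval of the log2 fold change lay inside ±0.25 for 14 genes in Het against WT, 13 in KO against WT and 15 in KO against Het, and inside ±0.5 for 23, 23 and 24 of the 27. In KO against WT the 4 genes whose intervals reached beyond ±0.5 were Gabra2, Gabre, Gabrq and Slc6a5. The median absolute log2 fold change over the 27 genes was 0.062, 0.032 and 0.045 in Het against WT, KO against WT and KO against Het. Over all genes tested it was 0.09, 0.07 and 0.084. Most of the 27 genes stood at 100 CPM or more, against 2433 of the 17671 genes tested, so these medians cover genes of unlike level.

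**Figure D3:**
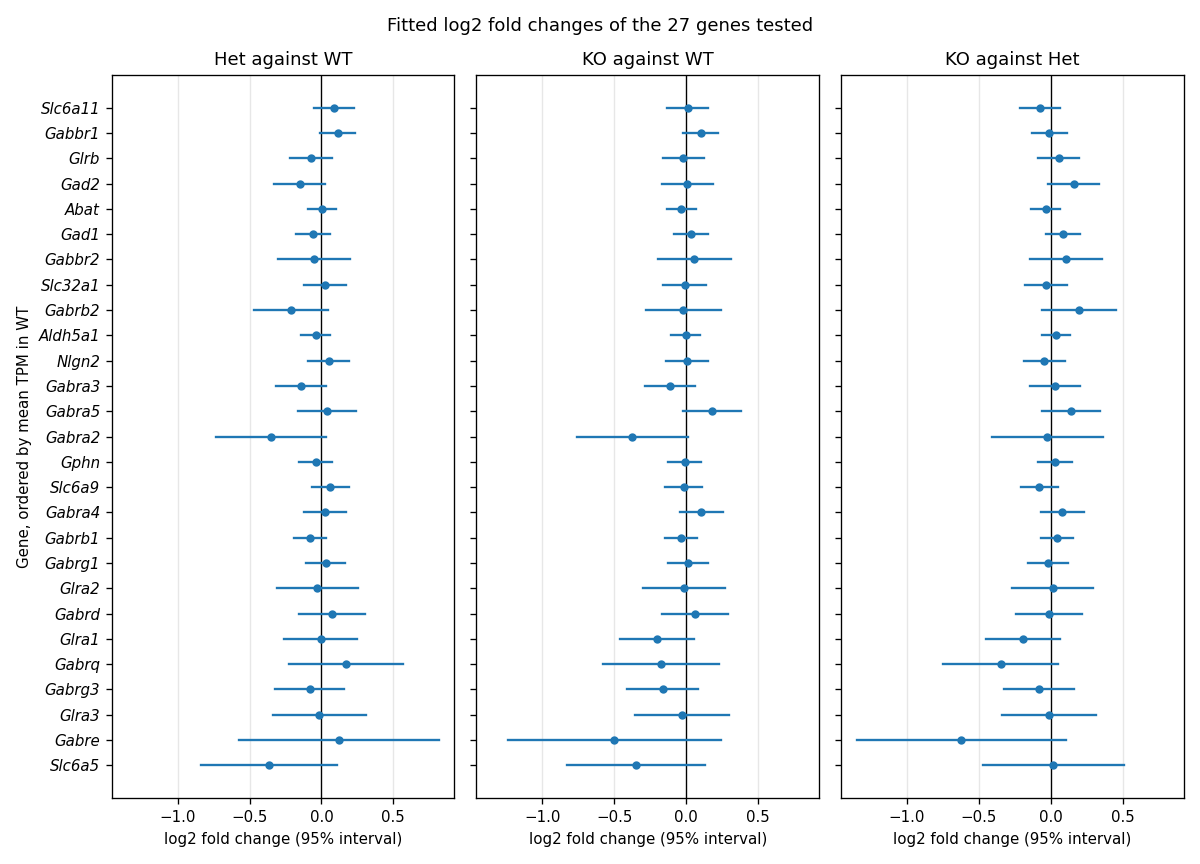
Fitted log2 fold changes (points) with 95% intervals (lines) of the 27 genes tested, for Het against WT, KO against WT and KO against Het, with genes ordered by WT TPM. Every interval includes 0, the intervals are narrow for the abundant genes at the top, and they are widest for Gabre, Slc6a5, Gabrq and Gabra2.

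Het replicate 2 stood apart within the set. It was the lowest of the 9 libraries for 13 of the 27 genes (48.1%), against 17.5% of all genes tested, although its total count was the largest of all. The deviation from the mean of the other 8 libraries was -1.05 for Gabre, -0.64 for Gabrb2, -0.50 for Glra2, -0.48 for Gabbr2, -0.46 for Gabrq and -0.37 for Gad2 on the log2 scale. For Gabrb2, 440 of 17671 genes (2.49%) deviated further down in this library. Glra3, Gabrg3, Gabrd, Gabra3, Gabra4, Gabrb1 and Aldh5a1 were also lowest there, with deviations from -0.42 for Glra3 to -0.099 for Aldh5a1. The other 14 genes deviated by -0.18 to 0.18, and among them Glrb was at its highest in this library.

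The 13 genes lay across all receptor classes and did not include Gad1, Slc32a1 or Gphn. Their median exon length was 5876 bases and their median GC content 44.0%, and those of the other 14 genes were 5463 bases and 49.2%, beside 3973 bases and 49.4% over all genes. Outside the set, Dot1l was also at its lowest in Het replicate 2, whereas Mbp was at its highest. What sets this library apart was not tested. Het replicate 1 was the highest library for 8 of the 27 genes (29.6%), against 8.23% of all genes. In the plots of deviations and of library ranks, the column of Het replicate 2 is the one that differs from the rest of its group.

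**Figure D4:**
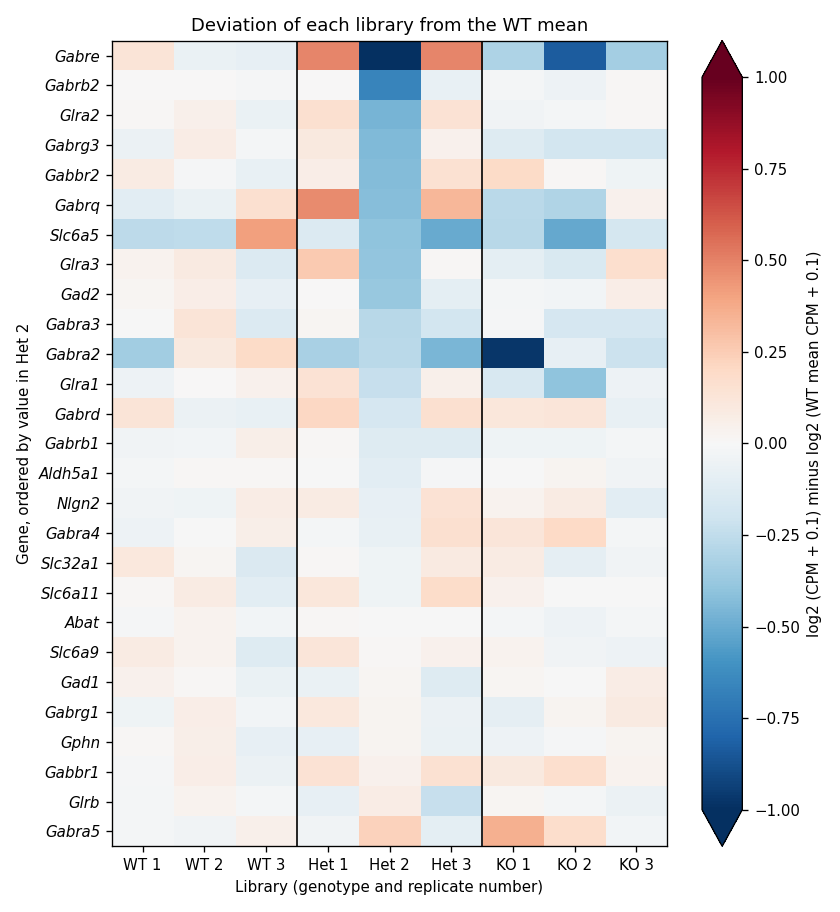
Deviation of each library from the WT mean for the 27 genes tested, as a difference of log2 (CPM + 0.1), with genes ordered by Het replicate 2 and the colour scale ending at 1 in both directions. The Het 2 column is lower for the genes in the upper part, the Het 1 and Het 3 cells are higher for Gabre and Gabrq, and KO 1 is lower for Gabra2.

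**Figure D5:**
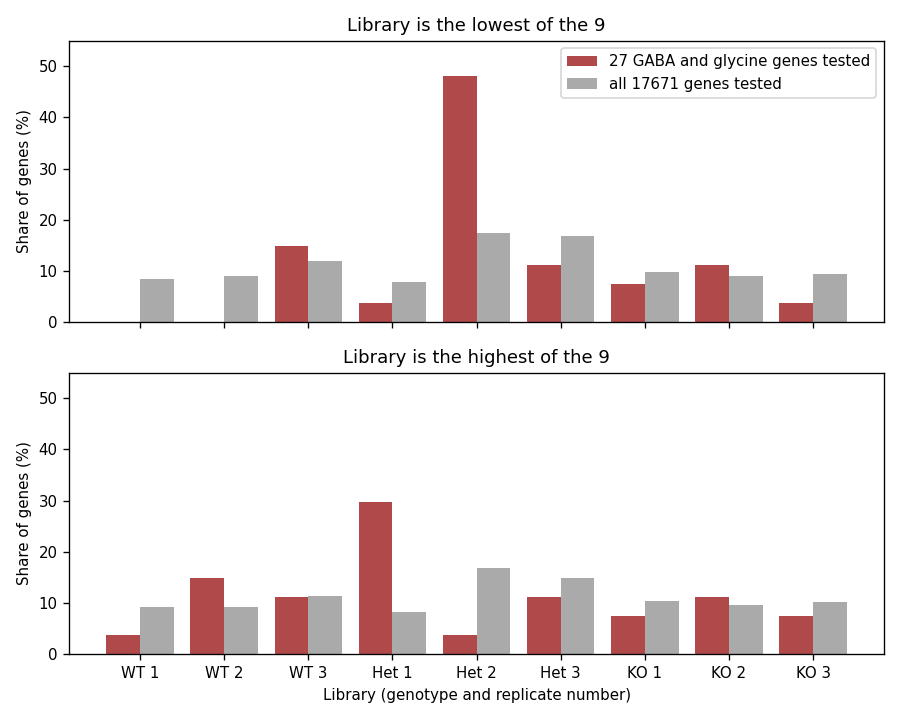
Share of genes (%) for which each library is the lowest (upper panel) or the highest (lower panel) of the 9, for the 27 genes of the set and for all genes tested; bars start at 0. Het 2 is lowest for 48.1% of the set beside 17.5% of all genes, and Het 1 is highest for 29.6% beside 8.23%.

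Without Het replicate 2, 0 members had an adjusted p under 0.05, whereas over all genes 5 passed in Het against WT, 12 in KO against Het and 4 in KO against WT, beside 0 in each with all libraries. In this setting 5 members passed an unadjusted p of 0.05 in Het against WT, with log2 fold changes of 0.40 for Gabrq, 0.50 for Gabre, 0.15 for Gabbr1, 0.15 for Slc6a11 and -0.15 for Glrb. In KO against Het 9 members passed, of which Gabre (-1.0) and Gabrq (-0.58) had the largest changes, with adjusted p = 0.0946 and 0.121 in edgeR's quasi-likelihood test with Benjamini-Hochberg adjustment. In KO against WT, where the library enters only the estimate of the spread, 3 members passed without adjustment. The shares of all genes past an unadjusted p of 0.05 in this setting, in the same order, were 10.2%, 9.79% and 5.23%. The median log2 fold change of the set in Het against WT moved from -0.015 to 0.055. Leaving out Het replicate 1 in its place gave 4 genes in Het against WT (Gad2, Gabra3, Gabrb2 and Gabrb1, all lower) and 2 in KO against Het, beside 12.5% and 9.37% of all genes, and moved the median in KO against Het from -0.011 to 0.051.

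Of 75 other genes of GABA and glycine signalling, listed in 6 groups, 70 were tested. In Het against WT 2 were higher and 3 lower at an unadjusted p under 0.05, in KO against WT 0 and 0, and in KO against Het 7 and 2, with 0 adjusted calls in each. The shares of all genes past that threshold, in both directions together, were 8.39%, 3.93% and 6.48%. The groups of precursor supply and glycine turnover (14 genes tested) and of rho and other subunits (2 tested) held no gene past that threshold. The GABA-B partners, 11 genes that carry or modulate GABA-B signals, held 2 lower in Het against WT and 4 higher in KO against Het, with median log2 fold changes of -0.081 and 0.064. Kcnj3, the GIRK1 potassium channel subunit opened by GABA-B receptors, was counted at 129.8, 130.3 and 143 CPM in WT, 119, 112 and 111 in Het and 138, 135 and 129 in KO. Every Het library lay below every WT and KO library, Het replicate 2 included but not the lowest of them. The log2 fold change was -0.24 (95% interval -0.36 to -0.12) in Het against WT and 0.23 (0.12 to 0.35) in KO against the same Het libraries, with adjusted p = 0.54 and 0.535 in edgeR's quasi-likelihood test with Benjamini-Hochberg adjustment. The other genes past the unadjusted threshold were Kctd16 among the GABA-B partners (-0.33), the betaine and GABA transporter Slc6a12 (-0.51), and Gabarapl1 (0.14) and Clptm1 (0.14), which act in receptor trafficking, in Het against WT. In KO against Het they included Slc6a12 (0.75), Kctd12 (0.22), Gng2 (0.19), Igsf9b (-0.45) and, in the chloride gradient group, Oxsr1 (-0.12). For Slc6a12, Het replicates 1 and 3 lay at 2.58 and 2.71 CPM, whereas Het replicate 2 at 4.84 lay within the range of the WT libraries.

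Markers of GABA neurons that are not in the set were counted in 2 lists. Of 8 midbrain and brainstem GABA neuron markers, 0 were higher and 1 (Zfpm2, -0.27) lower in Het against WT at an unadjusted p under 0.05, and 0 and 0 in KO against WT, with median log2 fold changes of -0.12 and -0.056. Their summed level was 141 to 154 CPM in WT, 127 to 152 in Het and 137 to 151 in KO. Of 14 forebrain and hypothalamic GABA neuron markers, 13 were tested and 3 (Gal, Sp9 and Npy) were higher in Het than in WT at that threshold, and 1 (Npy) in KO than in WT, with 0 lower in both and median log2 fold changes of 0.32 and 0.14. Npy, the neuropeptide Y precursor, was counted at 7.14, 5.62 and 6.87 CPM in WT and 8.71, 11.6 and 8.61 in KO, which did not overlap (log2 fold change 0.56, unadjusted p = 0.00257 and adjusted p = 0.999 in edgeR's quasi-likelihood test with Benjamini-Hochberg adjustment). The summed level of the 14 was 112 to 128 CPM in WT, 124 to 156 in Het and 119.9 to 141 in KO. Over the same libraries, 8 of 11 dopamine neuron markers were lower in KO than in WT at an unadjusted p under 0.05. The share of all genes, in both directions together, was 3.93%. The lowest adjusted p of these markers was 0.0906, for Slc6a3, in edgeR's quasi-likelihood test with Benjamini-Hochberg adjustment. The median log2 fold change of the 11 was -0.39, beside -0.014 for the 27 genes of GABA and glycine signalling.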

How the data were processed

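RNA from dissected midbrain was converted to directional libraries (NEBNext Ultra Directional) and sequenced, and the authors deposited 1 table of whole-number read counts per gene for each of the 9 libraries, with no normalization. The submitters' processing notes name bcl2fastq 2.17, Trimmomatic 0.30, DESeq2 1.10.1 and the GRCm38.p4 build. The aligner, the counting tool, its strand setting and the annotation release are not given in the sources used here. The design text of the series describes sorted embryonic neurons, whereas the sample labels describe P180 dissections, and the labels were followed. The authors' 3 tables of comparisons, which hold mean signals, log2 fold changes, standard errors, Wald statistics and p-values, were not used.

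Genotypes were taken from the sample labels. The counts were fitted with edgeR 4.0.16 (R 4.3.3), using TMM normalization (factors 0.988 to 1.01), filterByExpr by genotype, and a single quasi-likelihood model over the 9 libraries whose only factor was genotype. Benjamini-Hochberg adjustment ran over the 17671 genes tested, with a common BCV (biological coefficient of variation) of 8.81%. Intervals are 95% intervals of the same fit. CPM used the TMM library sizes. TPM used merged exon lengths of GENCODE M21, which held 47224 of the 47729 gene identifiers and 99.91% of the counts. Depth ran from 16422135 to 28403218 counts per library. The code was tested on simulated counts. The alternatives were DESeq2 1.42.0, DESeq2 size factors in edgeR, no low-count filter, at least 10 counts required of all libraries, the 2 groups compared alone, a per-library correction by spline (4 degrees of freedom) for exon length and GC, a block for replicate number, both of these together, and each library left out in turn. The labels name no batch.

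Every one of the 28 genes is named. Values in every library are given for members past an unadjusted p of 0.05 or with groups that do not overlap, and for Gad1, Gad2, Slc32a1, Slc6a5, Slc6a9, Slc6a11, Gabra6, Glra1, Glrb and Gphn. Those of Gabra2, Gabrb2, Gabrq, Gabbr1, Gabbr2 and Kcnj3 were added after their values were seen. The genes, the marker lists and the pathway lists were chosen with earlier results of these data known. The sequences before transcription starts came from RefSeq on GRCm38.p6.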

Additional observations from a re-analysis of the deposited data

How the results depend on the processing

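No gene of the set had an adjusted p under 0.05 in any comparison, with 1 exception: edgeR without a filter on low counts gave 1 in Het against WT and 1 in KO against WT (Gabra2 in both). Of all genes, that setting called 251, 118 and 164 in Het against WT, KO against WT and KO against Het. The cause was not tested. The number past an unadjusted p of 0.05, which was 0 in all 3 comparisons, depended on the setting, and the share of all genes past it follows each count in brackets. In Het against WT it was 4 without the filter (7.61%), 1 with the 2 groups alone (7.32%), 1 in DESeq2 (4.42%), 2 with the length and GC offset (6.96%), and 0 to 5 with 1 library left out (5.45% to 12.5%). In KO against WT it was 3 without the filter (4.27%), 3 with the 2 groups alone (5.57%), and 0 to 3 with 1 library left out (2.13% to 5.26%). In KO against Het it was 5 without the filter (6.34%), 1 with the length and GC offset (5.98%), and 0 to 9 with 1 library left out (4.90% to 9.79%). With 1 library left out, the median log2 fold change of the set ran from -0.058 to 0.055 in Het against WT, from -0.039 to 0.0047 in KO against WT and from -0.038 to 0.051 in KO against Het. Glra2 in KO against Het ran from -0.17 to 0.12.

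The study's methods describe pools of littermate sets, but not that the replicate numbers mark them. Same-numbered libraries had correlated deviations from their genotype means (r = 0.022 to 0.317), under 0.1 in 3 of 9 pairs, and not every library correlated best with its own number. With the replicate block, 2, 1 and 1 genes passed an unadjusted p of 0.05 in Het against WT, KO against WT and KO against Het, beside 9.34%, 4.43% and 7.12% of all genes, and 2, 2 and 2 with the block and the length and GC offset, beside 7.63%, 4.30% and 6.41%, with 0 adjusted calls among the members. Gabra6 was removed by the filter on low counts, and the intervals of Gabra2, Gabre, Gabrq and Slc6a5 exceeded ±0.5 in KO against WT. The part of depth in these intervals was not tested.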
